A study of Populus tomentosa with 15 samples.

Results

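A set of 121 genes was examined in *Populus tomentosa* suspension cells. They stood above WT in the antisense line *anti-3* and lay within set bounds of WT in the other cells. Inside these bounds many still differed from WT, as given below. The expression table held 42635 features, of which 34743 had a value above 0. The members were chosen by their measured values. For each group the mean of log2(FPKM + 1) over its 3 libraries was taken, and the WT mean was subtracted. A member lay more than 1.5 above WT in *anti-3*, within 0.75 of WT in *OX*, within 1 of WT in *anti-3*-A and within 1 of WT in *OX*-H. FPKM is the number of reads on a gene scaled to its length and to the library total, so levels can be compared between genes of unequal length.

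The 15 libraries comprised 3 each of 5 groups, all of suspension cells shaken at 140 rpm and 25 °C in the dark and collected 5 days after subculture. *anti-3* is a single cell line carrying an antisense construct against *PtomtAPX* (PtomitAPX in the sample labels), the mitochondrial ascorbate peroxidase, and *anti-3*-A is the same line given 1 mM ascorbate (AsA) for 3 h. *OX* cells overexpressed *PtomtAPX* from the 35S promoter, and *OX*-H cells are *OX* cells given 10 mM H2O2 for 3 h. WT is the untransformed, untreated culture. No library of WT cells given either treatment, or of mock-treated cells, was analysed here, so that each treatment is seen in 1 line only and cannot be told apart from handling of the cells. The overexpressing cells also needed the cytokinin 6-BA to grow in their medium, which cannot be told apart from the transgene in any value of *OX* or *OX*-H. Nothing in the labels says that the 3 libraries of a group came from separate cultures, so the spread between them may be technical.

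Ascorbate peroxidase reduces H2O2 to water with electrons from AsA, and it is one of the enzymes that keep H2O2 low in mitochondria, chloroplasts and the cytosol of plant cells. H2O2 damages proteins and lipids at high levels and also acts as a signal that changes the expression of nuclear genes. Thiol systems built on thioredoxin and its NADPH-dependent reductase stand beside the ascorbate cycle in the same task.

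Library totals worked back from the FPKM steps were 15618191 to 21278437 reads. All 121 members passed the filter for testing, 1 FPKM or more in 3 or more libraries, which 24694 genes passed. Differences were tested with limma on log2(FPKM + 1) with all 15 libraries in 1 fit and Benjamini-Hochberg adjustment over the 24694 genes. On this scale the change of a weakly expressed gene appears smaller than it is. No identifier of the table could be matched to *PtomtAPX*, so the targeted gene is not analysed here, and the cell type could not be checked against markers for the same reason. Functions below are the Gene Ontology (GO) terms that the study's supplementary table gives for an identifier, and some of its gene lists were shortened, so a gene may have further terms.

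The members were the low end of a graded relation between both transgenic lines, and the words "raised only in *anti-3*" hold within the bounds of the rule alone. Of 1383 genes more than 1.5 above WT in *anti-3*, 1198 were also at least 0.75 above WT in *OX*, 10 were at least 0.75 below it and 175 lay between these bounds. A further 4 genes were lost at the bound for *anti-3*-A. The bound for *OX*-H removed 50 more, and all 50 lay below WT in *OX*-H. The members that were left made up 8.75% of the 1383. No gap separated them from the rest, because with the other bounds met 28 genes lay 0.25 to 0.50 above WT in *OX*, 52 lay 0.50 to 0.75 above it, and 62 lay 0.75 to 1.00 above it. The choice of members also rests on the pseudocount of 1, since the rule took 177 genes with a pseudocount of 0.1 and 43 of these were members.

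**Figure D1:**
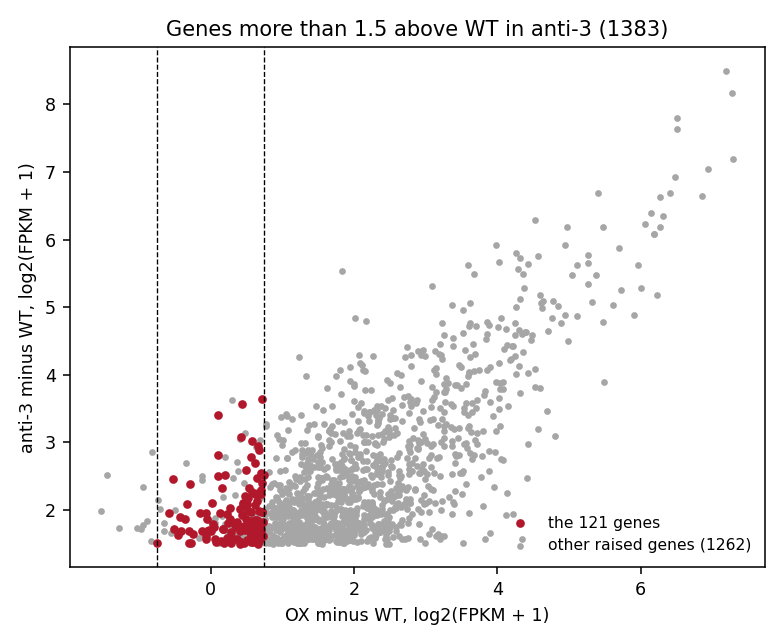
Difference from WT in *anti-3* (vertical) against that in *OX* (horizontal), both of mean log2(FPKM + 1), for the 1383 genes more than 1.5 above WT in *anti-3*; dashed lines are the bounds of 0.75 in *OX*. The 121 members sit at the lower left edge of the cloud, between the dashed lines, with *anti-3* differences of 1.501 to 3.64.

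The values just inside and just outside the bounds were close together. In *anti-3* the member nearest the bound was at 1.501 and the nearest gene that failed it alone was at 1.497. In *OX* these values were 0.741 and 0.751 at the upper bound, in *anti-3*-A 0.982 and 1.008, and in *OX*-H -0.999 and -1.04 at the lower bound.

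The members' medians inside the bounds were not at 0 in *OX* and *OX*-H. In such cultures, measured in bulk, more cells expressing a gene and more of its RNA per cell cannot be told apart. In *anti-3* the median member lay 1.80 above WT on the log2(FPKM + 1) scale (range 1.501 to 3.64), where the median of all tested genes was -0.26. In *anti-3*-A the median member lay 0.07 above WT, against 0.02 for all tested genes. In *OX* it lay 0.45 above WT, against -0.18 for all tested genes. In *OX*-H it lay at -0.37, against -0.10 for all tested genes. On the linear scale the median ratio of the mean FPKM to that of WT was 6.11 in *anti-3*, 1.121 in *anti-3*-A, 1.56 in *OX* and 0.543 in *OX*-H, over the 118 members with reads in WT. In *OX* 28 members exceeded WT more than 2-fold and 8 were below 0.5 of WT. In *OX*-H 4 exceeded WT more than 2-fold and 54 were below 0.5 of it, and in *anti-3*-A 18 and 8 did so. The same counts over all tested genes were not made. When the medians of the libraries were aligned, the members' medians became 1.98 in *anti-3*, 0.06 in *anti-3*-A, 0.60 in *OX* and -0.26 in *OX*-H.

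**Figure D2:**
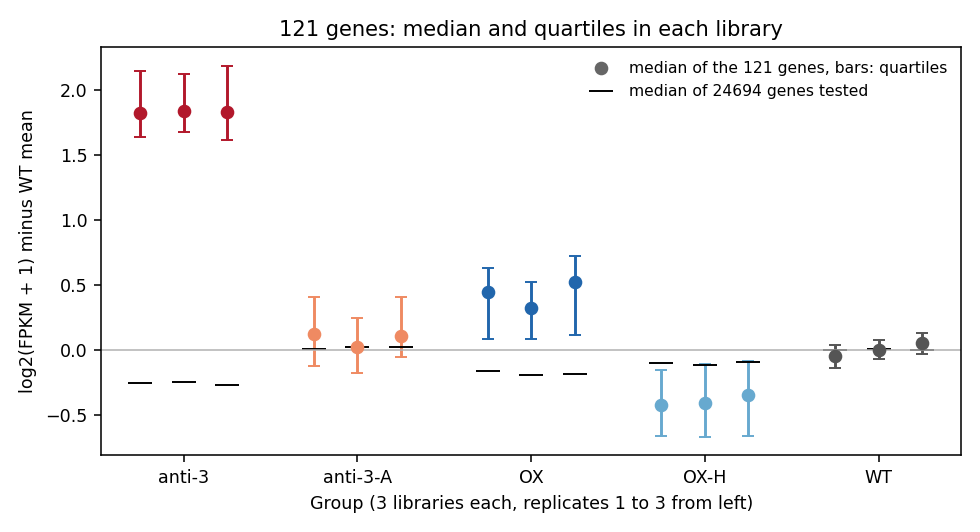
Median of the 121 members in each of the 15 libraries (circles, bars from the lower to the upper quartile) as log2(FPKM + 1) minus the WT mean, with the median of the 24694 tested genes as a black dash. The 3 *anti-3* libraries lie at 1.82 to 1.84, the *anti-3*-A libraries at 0.02 to 0.12, the *OX* libraries at 0.32 to 0.52, the *OX*-H libraries at -0.42 to -0.35 and the WT libraries at -0.05 to 0.05.

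Summed, the members took 0.502% to 0.512% of the FPKM sum of an *anti-3* library, 0.138% to 0.149% in *anti-3*-A, 0.186% to 0.212% in *OX* and 0.0982% to 0.103% in *OX*-H, against 0.128% to 0.141% in WT. The *OX* shares lay above all WT shares and the *OX*-H shares below them, while the ranges of *anti-3*-A and WT overlapped. Such sums weigh the strongest members most, and 6 members held 36.4% of the member reads in *anti-3*. Replicate 2 had the lowest member median of the *OX* libraries, 0.32, where the others had 0.45 and 0.52.

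The calls, and the p-values of single members below, are given as a description, since the rule used every one of these libraries. The 3 *anti-3* libraries lay above the 3 WT libraries in all 121 members, as in 24.2% of tested genes. All 121 members passed an adjusted p below 0.001 and a log2(FPKM + 1) difference above 1.5 in *anti-3* against WT, where 5.59% of tested genes were raised. These cutoffs follow the methods of the study, where 1.5 is a log2 ratio of read counts tested with DEGseq, while its results call 1.5 a fold change, so the calls here are not the study's own differentially expressed genes (DEGs). The *anti-3* libraries lay above the other 12 libraries in 120 members, as they did in 9.04% of tested genes. The exception was POPTR_1183s00200, a metal ion transport gene with 65 reads in *anti-3*, named here for this reason alone. In *anti-3*-A against *anti-3* 90 members passed the thresholds downward (5.69% of tested genes), and in *OX* against *anti-3* 65 did (1.80% of tested genes). The rule itself sets these differences at more than 0.5 and more than 0.75 downward.

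Inside the bounds of the rule, the members called against WT lay mostly above it in *OX* and mostly below it in *OX*-H. A large share of all tested genes was called in these groups too, so a call by itself is not particular to the members. At an adjusted p below 0.05, 75 members were higher in *OX* than in WT and 10 were lower, where 31.7% and 46.7% of all tested genes were. In *OX*-H 8 members were higher than WT and 70 were lower, against 29.3% and 40.9% of tested genes. In *anti-3*-A 27 were higher and 11 were lower, against 20.0% and 17.5% of tested genes. The 3 *OX* libraries lay above the 3 WT libraries in 72 members, as in 32.5% of tested genes, and the 3 *OX*-H libraries lay below them in 72 members, as in 43.0% of tested genes.

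In none of *anti-3*-A, *OX* and *OX*-H did 17 members pass this test, and 7 of them carried a GO term. The share of all tested genes that passed in none was not counted, so the 17 are not read as a trait of the set. These 17 were mostly weakly expressed, with a median of 0.377 FPKM and 6 reads in the 3 WT libraries together. Their differences of *OX* from WT were -0.31 to 0.57, and whether the low depth kept them from a call was not tested. They included 5 transcription genes, among them POPTR_0014s07210 and POPTR_0004s03900, named after their values were seen.

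The set was weighted to weakly expressed genes. In WT the median member had 1.09 FPKM, and 54 members were under 1 FPKM, 42 were at 1 to 10 FPKM and 25 were at 10 FPKM or more. The members had a median of 688 reads in the 3 *anti-3* libraries together and of 86 reads in WT, and 29 had under 30 reads in WT. No read was counted in *OX*-H for 15 members, in *anti-3*-A for 4, in *OX* for 2 and in WT for 3. By comparison, the 799 genes that met the other bounds but lay at least 0.75 above WT in *OX* had a median of 5.34 FPKM in WT. These 799 had a median ratio to WT of 6.29 in *anti-3*, near the 6.11 of the members, and of 5.11 in *OX*. No test was made of these differences, because the rule separates both sets by their values in *OX*.

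The response of weak and strong members differed in scale. Members under 1 FPKM in WT had a median ratio to WT of 11.7 in *anti-3*, 1.90 in *OX* and 0.221 in *OX*-H, whereas those at 10 FPKM or more had 3.35, 1.52 and 0.695 in the same groups. On the log2(FPKM + 1) scale of the rule their medians in *anti-3* were 1.88 and 1.68. The pseudocount asks a larger ratio of a weak gene to pass the same bound, and a weak gene can differ 2-fold between *OX* and WT and still lie inside the bound.

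Of the 121 members, 52 carried a GO term and 69 did not. The terms named transcription or DNA binding for 21 members, kinases and phosphatases for 5, transport for 5, thioredoxin-disulfide reductase for 3, glycosyl transfer for 3, trehalose-phosphatase for 2 and other functions for 13. By kind of identifier, 116 were annotated poplar loci (POPTR), 3 had an ENSRNA identifier and 2 were unnamed features that the table numbers apart from the loci. The median length of the members was 1185 bp, against 1395 bp for the tested genes.

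In all 3 genes annotated with thioredoxin-disulfide reductase activity, the transfer of electrons from NADPH to thioredoxin, the mean level was highest in *anti-3*, lowest in *OX*-H and next lowest in WT, while *anti-3*-A and *OX* changed places between genes. POPTR_0749s00210 had 12.02, 14.0 and 14.4 FPKM in *anti-3*, 2.60, 2.12 and 2.69 FPKM in *anti-3*-A, 1.78, 2.40 and 2.12 FPKM in *OX* and 0.119, 0 and 0.313 FPKM in *OX*-H, against 0.892, 1.18 and 1.24 FPKM in WT. Its *anti-3*-A and *OX* libraries lay above the WT libraries without overlap and its *OX*-H libraries lay below them. In *anti-3* it was 12.2 times the WT level, a difference of 2.78 ± 0.12 (SE) on the log2(FPKM + 1) scale with an adjusted p of 1.46e-11.

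POPTR_0749s00200, the neighbouring identifier on the same scaffold, had 8.66, 10.7 and 9.55 FPKM in *anti-3*, 1.92, 0.894 and 1.44 FPKM in *anti-3*-A, 1.76, 1.95 and 3.35 FPKM in *OX* and 0, 0.1001 and 0 FPKM in *OX*-H, against 0.858, 1.201 and 0.960 FPKM in WT. Its *OX* libraries lay above WT, its *anti-3*-A libraries overlapped WT, and a single read was counted in the 3 *OX*-H libraries where WT had 36. POPTR_0010s21210 had 7.06, 9.70 and 8.59 FPKM in *anti-3*, 2.05, 1.10 and 1.18 FPKM in *anti-3*-A, 1.62, 2.03 and 1.95 FPKM in *OX* and 0.0670, 0.492 and 0.117 FPKM in *OX*-H, against 0.843, 0.737 and 1.66 FPKM in WT. Here both *anti-3*-A and *OX* overlapped WT, and *OX*-H lay below it. Adjusted p-values in *OX*-H against WT were 1.2e-05 for POPTR_0749s00210, 0.000138 for POPTR_0749s00200 and 0.00201 for POPTR_0010s21210. How the authors' counting treated reads that fit several genes is not given in the sources used here, and such reads could be shared among near-identical copies of these genes.

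**Figure D3:**
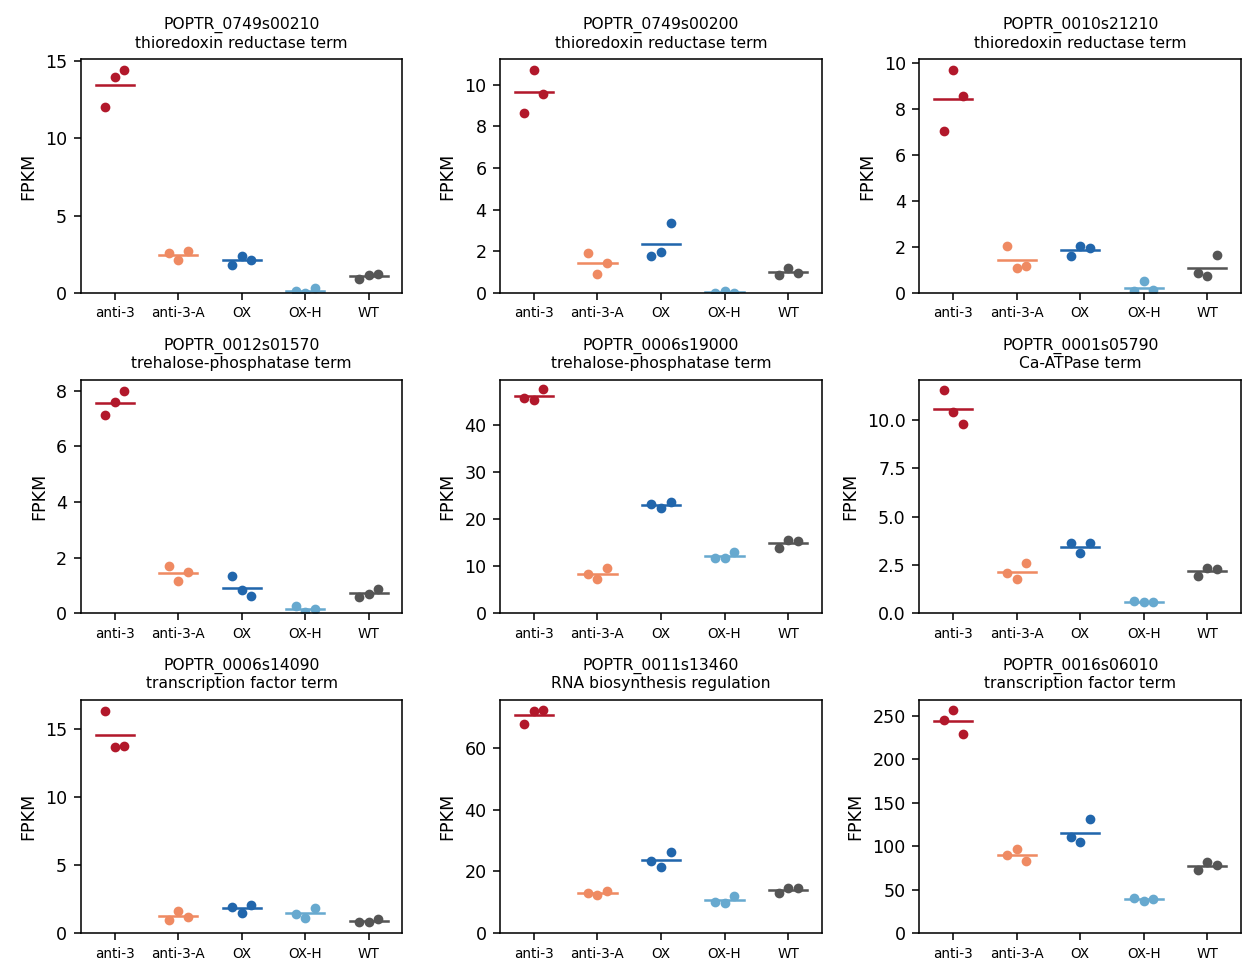
FPKM of 9 annotated members in each library (circles) with the group mean (line), from left *anti-3*, *anti-3*-A, *OX*, *OX*-H and WT; each panel has its own axis from 0. In every panel the 3 *anti-3* libraries lie above all others, and the *OX* mean lies between the *anti-3* mean and the WT mean. The 9 genes were picked by hand, so this order is not that of all members. Of the 121 members, 22 lay below WT in *OX*, among them POPTR_0018s00700 and POPTR_0011s04730, which are not shown.

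The members annotated with trehalose-phosphatase activity differed from each other outside *anti-3*. This activity removes the phosphate from trehalose-6-phosphate, a sugar phosphate known as a signal of sucrose supply in plants. POPTR_0012s01570 had 7.14, 7.59 and 8.01 FPKM in *anti-3*, 1.69, 1.14 and 1.496 FPKM in *anti-3*-A, 1.32, 0.840 and 0.608 FPKM in *OX* and 0.251, 0.0576 and 0.164 FPKM in *OX*-H, against 0.593, 0.691 and 0.854 FPKM in WT. Its *OX* libraries overlapped WT (adjusted p = 0.31), its *anti-3*-A libraries lay above WT (adjusted p = 0.00788) and its *OX*-H libraries lay below WT (adjusted p = 0.00158). POPTR_0006s19000 had 45.7, 45.2 and 47.6 FPKM in *anti-3*, 8.35, 7.25 and 9.64 FPKM in *anti-3*-A, 23.2, 22.4 and 23.5 FPKM in *OX* and 11.7, 11.6 and 13.0 FPKM in *OX*-H, against 13.9, 15.5 and 15.3 FPKM in WT. It was therefore above WT in *OX* by 0.60 ± 0.08 (SE, adjusted p = 4.97e-06) and below WT in *anti-3*-A by a difference of -0.76 ± 0.08 (adjusted p = 3.22e-06), the lowest *anti-3*-A difference of all members.

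Of the 5 transport genes, POPTR_0001s05790 is annotated as a calcium-transporting ATPase that binds calmodulin, a pump that removes Ca2+ from the cytosol. It had 11.6, 10.4 and 9.79 FPKM in *anti-3*, 2.07, 1.79 and 2.58 FPKM in *anti-3*-A, 3.62, 3.12 and 3.61 FPKM in *OX* and 0.627, 0.575 and 0.566 FPKM in *OX*-H, against 1.91, 2.32 and 2.30 FPKM in WT. The *OX* libraries lay above WT and the *OX*-H libraries lay below it, 0.271 of the WT level. The adjacent identifier POPTR_0001s05800 has the same calcium-transporting ATPase terms and was chosen for mention after its values were seen. It lay 1.86 above WT in *anti-3* and 1.53 in *OX*, so that it was outside the set.

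POPTR_0009s02310, annotated with malate transport, had 3.01 ± 0.19 FPKM in *anti-3*, 0.344 ± 0.23 FPKM in *anti-3*-A, 0.535 ± 0.080 FPKM in *OX* and 0.201 ± 0.078 FPKM in *OX*-H, against 0.258 ± 0.043 FPKM in WT (SD, n = 3 each). It had 11.7 times the WT level in *anti-3* and 2.07 times that level in *OX*, on 237 reads in *anti-3*, 42 in *OX* and 22 in WT. POPTR_0001s12180, annotated with anion transmembrane transport, had 6.71 ± 0.80 FPKM in *anti-3* and 1.14 ± 0.31 FPKM in WT (SD, n = 3 each). POPTR_0015s07070, an ATPase-coupled transporter by its terms that was likewise chosen after its values were seen, was the member closest to the *anti-3*-A bound, with 1.54 to 2.26 FPKM in *anti-3*-A and 0.413 to 0.541 FPKM in WT. All 5 transport genes were lower in *OX*-H than in *OX* at an adjusted p below 0.05, as were 93 of the 121 members and 28.9% of tested genes.

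The 21 transcription and DNA-binding members formed the largest annotated group. Their mean levels in *anti-3* were 2.65 to 316 FPKM (median 9.19) and those in WT were 0.0422 to 92.6 FPKM (median 0.965). In *OX* 12 of the 21 were higher than WT and 1 was lower at an adjusted p below 0.05, beside 75 and 10 of the 121 members and 31.7% and 46.7% of tested genes. In *OX*-H 3 were higher than WT and 10 were lower, beside 8 and 70 of the members and 29.3% and 40.9% of tested genes. Against *OX*, *OX*-H cells had lower levels in 15 and higher levels in 1, beside 93 and 3 of the members and 28.9% and 43.3% of tested genes. Nothing particular to the transcription genes is read from these counts.

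POPTR_0006s14090, a sequence-specific transcription factor by its terms, had the largest *anti-3* difference of the annotated members, 3.02 ± 0.14 (SE, adjusted p = 1.56e-11). It had 16.4, 13.7 and 13.8 FPKM in *anti-3*, 0.957, 1.63 and 1.21 FPKM in *anti-3*-A, 1.94, 1.53 and 2.11 FPKM in *OX* and 1.44, 1.14 and 1.86 FPKM in *OX*-H, against 0.812, 0.858 and 1.10 FPKM in WT. Both *OX* and *OX*-H lay above WT without overlap. The next identifier, POPTR_0006s14100, also has a DNA-binding term and, mentioned after its values were seen, lay 2.38 above WT in *anti-3* and 1.15 in *OX*, outside the set.

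POPTR_0011s13460, a regulator of RNA biosynthesis by its terms, was expressed at a higher level. It had 67.6, 71.6 and 72.2 FPKM in *anti-3*, 13.1, 12.3 and 13.8 FPKM in *anti-3*-A, 23.3, 21.4 and 26.3 FPKM in *OX* and 10.3, 9.97 and 11.97 FPKM in *OX*-H, against 12.9, 14.8 and 14.8 FPKM in WT. Its *OX* libraries stood above WT by 0.70 ± 0.08 (SE, adjusted p = 1.26e-06), and its *OX*-H libraries stood below both.

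Other regulators named by the same kind of term departed from this order. POPTR_0018s00700 had 20.9, 18.8 and 22.0 FPKM in *anti-3*, 2.69, 2.80 and 1.86 FPKM in *anti-3*-A, 1.63, 1.72 and 1.77 FPKM in *OX* and 2.46, 1.93 and 3.91 FPKM in *OX*-H, against 2.28, 2.97 and 3.58 FPKM in WT. It was the 1 annotated member called lower in *OX* than in WT at an adjusted p below 0.05 (difference -0.53, adjusted p = 0.0093). Its *OX* and WT libraries did not overlap. Other annotated members lay below WT in *OX* without such a call, among them the next gene (difference -0.29, adjusted p = 0.0575). POPTR_0011s04730, annotated with nucleic acid-templated transcription, had 9.19 ± 0.55 FPKM in *anti-3*, 0.457 ± 0.071 FPKM in *anti-3*-A, 0.599 ± 0.22 FPKM in *OX* and 0.118 ± 0.025 FPKM in *OX*-H, against 0.965 ± 0.35 FPKM in WT (SD, n = 3 each).

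POPTR_0012s13870 and POPTR_0008s09140, both regulators of RNA biosynthesis or metabolism by their terms, had 10.7 ± 1.2 and 15.9 ± 2.0 FPKM in *anti-3*, against 0.981 ± 0.50 and 2.04 ± 0.48 FPKM in WT (SD, n = 3 each). POPTR_0008s09140 was higher in *OX* (difference 0.65, adjusted p = 0.000417) and lower in *anti-3*-A (difference -0.51, adjusted p = 0.00807) and *OX*-H (difference -0.76, adjusted p = 0.000119) than in WT. For POPTR_0012s13870 the differences from WT were 0.50 in *OX* (adjusted p = 0.017) and -0.33 in *anti-3*-A (adjusted p = 0.158).

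The strongly expressed members give the same comparison with little counting error. Of 10 members at 30 FPKM or more in WT, 6 carried a GO term, and these were named after their values were seen. POPTR_0005s07060, a regulator of transcription, had 303, 303 and 344 FPKM in *anti-3*, 121, 109 and 126 FPKM in *anti-3*-A, 154, 135 and 149 FPKM in *OX* and 106, 107 and 113 FPKM in *OX*-H, against 87.0, 92.1 and 98.6 FPKM in WT. All treated and transgenic libraries were thus above all WT libraries. POPTR_0016s06010, a sequence-specific transcription factor, had 245, 257 and 229 FPKM in *anti-3*, 90.1, 96.8 and 82.6 FPKM in *anti-3*-A, 111, 105 and 131 FPKM in *OX* and 40.9, 37.4 and 39.1 FPKM in *OX*-H, against 73.1, 82.6 and 78.3 FPKM in WT. It was 1.48 times the WT level in *OX* and 0.502 of that level in *OX*-H.

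POPTR_0001s03620, also annotated as a transcription factor, had 122, 124 and 139 FPKM in *anti-3*, 59.6, 48.4 and 59.5 FPKM in *anti-3*-A, 72.2, 69.6 and 66.8 FPKM in *OX* and 62.5, 64.8 and 70.7 FPKM in *OX*-H, against 40.4, 42.3 and 41.4 FPKM in WT. No library of the other groups overlapped WT in this gene, and *OX* and *OX*-H overlapped each other. POPTR_0006s00390 and POPTR_0004s18140, both with a cellular homeostasis term, had 401 ± 50 and 300.0 ± 2.2 FPKM in *anti-3*, against 113 ± 10 and 99.8 ± 4.3 FPKM in WT (SD, n = 3 each). In *OX* they had 168 ± 14 and 117 ± 3.5 FPKM, and in *OX*-H 76.7 ± 5.1 and 69.4 ± 1.8 FPKM. POPTR_0008s15910, annotated with calcium ion binding, had 113 ± 2.9 FPKM in *anti-3*, 35.4 ± 7.3 FPKM in *anti-3*-A, 42.6 ± 2.5 FPKM in *OX* and 21.8 ± 1.6 FPKM in *OX*-H, against 33.2 ± 2.0 FPKM in WT.

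Further annotated members had small or 0 counts outside *anti-3*. POPTR_0001s13390, with a cellular homeostasis term, had 7.63 ± 0.61 FPKM in *anti-3*, 0.144 ± 0.16 FPKM in *anti-3*-A, 0.874 ± 0.25 FPKM in *OX* and 0.0835 ± 0.050 FPKM in *OX*-H, against 0.165 ± 0.077 FPKM in WT (SD, n = 3 each). It was 5.30 times the WT level in *OX*, on 80 reads in *OX* and 16 in WT, and lay inside the bound with a difference of 0.68. POPTR_0005s00850, annotated only with a metabolic process, had 338 reads in *anti-3*, 71 in *anti-3*-A, 73 in *OX* and 0 in *OX*-H, against 19 in WT. POPTR_0001s29700, annotated with response to heat, had 13.1 ± 1.3 FPKM in *anti-3*, 2.30 ± 0.38 FPKM in *anti-3*-A, 4.76 ± 0.65 FPKM in *OX* and 2.70 ± 0.11 FPKM in *OX*-H, against 3.28 ± 0.49 FPKM in WT.

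Some identifiers of the members stood side by side, and the numbering of loci was not used by the rule. Within 50 in the locus number, 8 members in 4 pairs had another member as a neighbour, and 49 members had a neighbour among all 1383 genes raised in *anti-3*. These 49 were 40.5% of the members, and 40.3% of the 1383 raised genes had such a neighbour. One pair was that of the thioredoxin-disulfide reductase genes above. Another held a pair of kinase genes by their terms, POPTR_0003s14970 with 11.4 ± 1.3 FPKM in *anti-3* and 2.51 ± 0.34 FPKM in WT, and POPTR_0003s14980 with 11.9 ± 0.24 FPKM in *anti-3* and 2.97 ± 0.40 FPKM in WT (SD, n = 3 each). They parted in *OX*-H, where POPTR_0003s14970 had 5.01 ± 1.1 FPKM, above WT (adjusted p = 6.25e-05), and POPTR_0003s14980 had 2.28 ± 0.22 FPKM, below WT (adjusted p = 0.0442).

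The members with the largest *anti-3* differences had no GO term in the table used. POPTR_0002s12390, a 267 bp feature, had 199 reads in *anti-3*, 1 in *anti-3*-A, 13 in *OX* and 0 in *OX*-H, against 2 in WT. Its ratio to WT per read sequenced was 107 in *anti-3* (95% exact interval 29.2 to 889) and 7.02 in *OX* (interval 1.59 to 64.0), where the intervals cover counting error only. POPTR_0012s11990 had 28.4, 28.3 and 27.5 FPKM in *anti-3*, 1.65, 2.36 and 1.93 FPKM in *anti-3*-A, 2.48, 1.64 and 2.92 FPKM in *OX* and 0.614, 0.438 and 0.358 FPKM in *OX*-H, against 1.40, 1.65 and 1.31 FPKM in WT. Its *OX* and *anti-3*-A libraries overlapped WT and its *OX*-H libraries lay below WT.

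Addition of H2O2 to *OX* cells went with lower levels of most members. The median difference of *OX*-H from *OX* was -0.69 for the members and 0.14 for all tested genes. Lower levels in *OX*-H than in *OX* were not particular to the members. The 799 genes that met the other bounds but lay at least 0.75 above WT in *OX* had larger falls. Their medians against WT were 1.92 in *OX* and -0.04 in *OX*-H. For all 1383 genes raised in *anti-3* these medians were 1.86 and -0.11. At an adjusted p below 0.05, 93 members were lower and 3 were higher in *OX*-H than in *OX*, where 28.9% of tested genes were lower and 43.3% were higher. The rule bounds this difference on both sides without setting its sign, but it used the libraries of both groups, so the counts remain a description. The thioredoxin-disulfide reductase gene POPTR_0749s00200 had the largest downward difference of all members, -1.67 ± 0.17 (SE, adjusted p = 3.19e-07), on 1 read in *OX*-H and 78 reads in *OX*. The transcription factor POPTR_0016s06010 lay at -1.53 ± 0.08 (adjusted p = 8.69e-11), the Ca2+ pump POPTR_0001s05790 at -1.48 ± 0.11 (adjusted p = 4.05e-09) and the RNA biosynthesis regulator POPTR_0011s13460 at -1.07 ± 0.08 (adjusted p = 1.12e-08). The 3 members that were higher in *OX*-H included POPTR_0003s14970 (0.39, adjusted p = 0.012) and POPTR_0018s00700 (0.44, adjusted p = 0.0272).

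**Figure D4:**
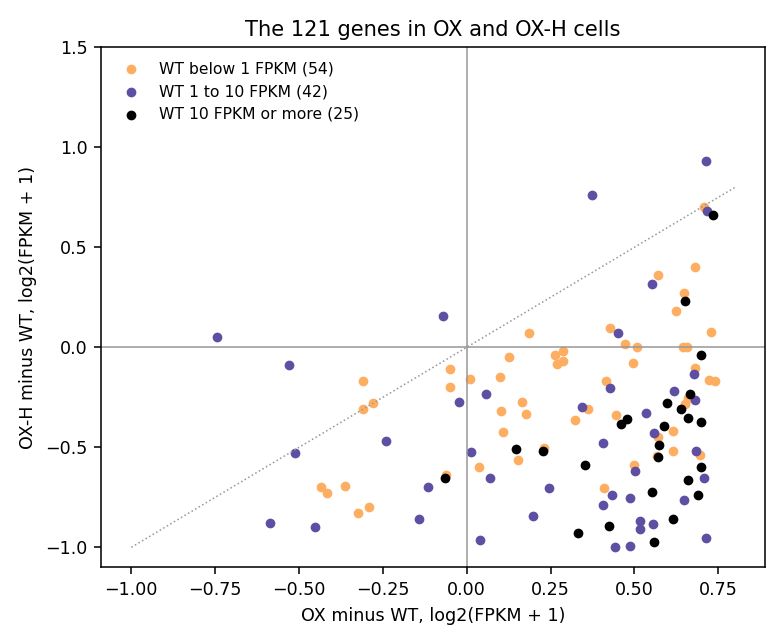
Difference from WT in *OX*-H (vertical) against that in *OX* (horizontal), both of mean log2(FPKM + 1), for the 121 members, coloured by their WT level; the dotted line marks equal differences. Most points lie to the right of 0 and below 0, with 99 members above WT in *OX* and 101 below WT in *OX*-H.

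Members stood on 6 of 17 GO lists drawn from the study's supplementary table. Its sheet for 1 cluster of *anti-3* DEGs names 144 terms, 65 of them with a complete gene list, and 17 of the 65 were picked by hand here for their function. The lists hold only genes that were already DEGs of *anti-3* in these libraries, so high counts in *anti-3* follow from how they were made and are not independent evidence of direction. Of their 174 genes 8 were members. A listed gene was counted as raised at an adjusted p below 0.001 and a difference above 1.5, which 5.59% of all tested genes were in *anti-3* and 6.50% in *OX*. Of 13 tested genes listed for thioredoxin-disulfide reductase activity, 9 were raised in *anti-3*, 4 were raised in *OX* and 3 were members. Of 6 listed for trehalose-phosphatase activity, 6 were raised in *anti-3*, 2 in *OX*, and 2 were members. Of 10 listed calcium-transporting ATPase genes 8 were raised in *anti-3* and 5 in *OX*, and POPTR_0001s05790 was the member. It also stood on the list for calmodulin binding, where 7 of 17 tested genes were raised in *anti-3* and 5 in *OX*. Response to heat had 7 of 8 raised in *anti-3*, 5 in *OX*, and 1 member, and malate transport had 3 of 6 raised in *anti-3*, 1 in *OX*, and 1 member. More genes of these lists lay at least 0.75 above WT in *OX*, and the rule leaves such genes out. They were 8 of 13 for thioredoxin-disulfide reductase, 4 of 6 for trehalose-phosphatase and 7 of 10 for calcium-transporting ATPase. For calmodulin binding they were 11 of 17, for response to heat 6 of 8 and for malate transport 3 of 6.

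The other 11 lists held no member. Response to chitin had 5 of 5 genes raised in both *anti-3* and *OX*. Unfolded protein binding, the function of chaperones, had 14 of 20 raised in *anti-3* and 11 in *OX*. Toxin catabolic process had 12 of 21 raised in *anti-3* and 8 in *OX*, and cell redox homeostasis had 11 of 21 in *anti-3* and 12 in *OX*. The stress-activated protein kinase cascade had 8 of 11 raised in *anti-3* and 7 in *OX*, endopeptidase inhibitors had 8 of 15 and 7, and xyloglucan:xyloglucosyl transferases, which remodel the cell wall, had 6 of 11 and 8. Sulfate transport had 3 of 7 and 3, phosphate ion transport 3 of 6 and 2, galactosyltransferases 5 of 10 and 6, and inositol 3-alpha-galactosyltransferases 2 of 4 and 2.

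**Figure D5:**
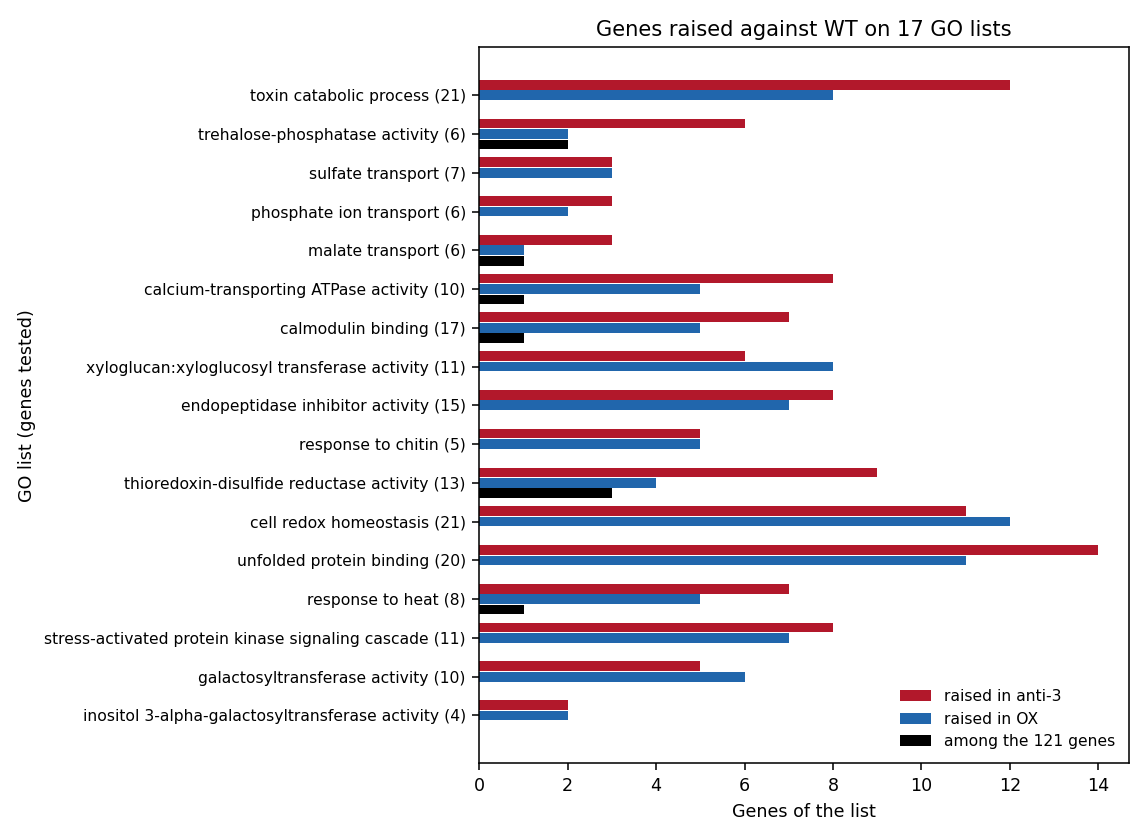
Number of genes on each of 17 GO lists that were raised against WT in *anti-3* (red) and in *OX* (blue) at an adjusted p below 0.001 and a log2 difference above 1.5, and that are among the 121 members (black); the number of tested genes is in brackets. Members are on 6 of the lists, with 3 of 13 thioredoxin-disulfide reductase genes as the most.

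The rule was also applied with 1 replicate number left out of all groups and read in the libraries left out, which it had then not used. Without replicate 1 it took 125 genes, of which 101 (80.8%) were more than 1.5 above WT in the held-out *anti-3* library and 67 (53.6%) met the whole rule there. Without replicate 2 it took 96 genes, of which 75 (78.1%) exceeded 1.5 and 65 (67.7%) met the whole rule. Without replicate 3 it took 134 genes, of which 103 (76.9%) exceeded 1.5 and 59 (44.0%) met the whole rule. The median *OX* difference in the held-out libraries was 0.51, 0.24 and 0.52, above 0 in each. The same shares over all tested genes were not counted. Because the 3 libraries of a group may be technical repeats, a held-out library may not be independent of the others.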

How the data were processed

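The authors deposited FPKM values of each gene in each of 15 libraries. Per the paper, reads were mapped to the *P. trichocarpa* genome with SOAPaligner/SOAP2 and RNA was extracted with TRIzol; the submitters' processing notes name TopHat2 2.0.12, Bowtie2 2.2.3 and HTSeq 0.6.1, and the labels name a column kit. Which of these applied is unsettled, and the genome release, strand use and multi-mapped reads are not stated. The authors' tables of fold changes and p-values of their own comparisons were not used. The members and lists were chosen with earlier results of these data known.

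Groups came from the sample labels. Differences were taken on log2(FPKM + 1), as deposited, and tested with limma 3.58.1 (R 4.3.3, trend on the mean) on genes at 1 FPKM or more in 3 or more libraries, each group having its own mean and no covariate being used. Reads were worked back from FPKM steps with Python 3.11.15, pandas 2.3.3 and scipy 1.17.1, each value above 0 coming out whole within 0.0001 reads, and totals were 15618191 to 21278437 reads per library. The fit and this step were tested on simulated data. Replicate libraries differed by more than sampling noise (chi-square per degree of freedom 2.28 to 6.77). Named genes are the up to 3 members of each list with the largest *anti-3* difference, the 12 annotated and 2 unannotated members with the largest, annotated members in neighbouring pairs, and the strongly expressed members. Alternatives were no filter or one at 5 FPKM, pseudocounts of 0.1 and 0.5, aligned medians, quantile normalization, only the groups compared, voom on whole reads, a replicate block, other bounds in *OX* and each replicate left out. No sequence is shown, because the identifiers matched no sequence used here.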

Additional observations from a re-analysis of the deposited data

How the results depend on the processing

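The rule took 177 genes with a pseudocount of 0.1, of which 43 were members, and 137 with one of 0.5, of which 77 were; aligned library medians gave 138 (85 shared) and quantile normalization 129 (104 shared). A bound of 0.5 in *OX* left 65 genes, all of them members, and a bound of 1 gave 183, among them all 121. Without 1 replicate number the rule took 96 to 134 genes. With a pseudocount of 0.1, 52 of the 121 fell outside the *OX* bound and 50 outside the *OX*-H bound. Members with a member neighbour numbered 13 with that pseudocount and 4 to 10 without 1 replicate number (4 without replicate 2).

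With the 121 members kept, *OX* against *anti-3* gave 42 calls with a filter at 5 FPKM in 3 or more libraries, where 81 members were tested. Members lower in *OX* than in WT numbered 5 under that filter, 2 with aligned medians and 5 to 7 without 1 replicate number. Members higher in *OX*-H than in *OX* numbered 1 with quantile normalization and 1 to 2 without 1 replicate number. Without 1 replicate number, 17 to 25 members were higher and 4 to 10 lower in *anti-3*-A than in WT, and 5 to 8 were higher in *OX*-H than in WT; the lowest of these came without replicate 1, 3 and 1, in that order. All other counts of calls stayed within 1.5 times under each alternative. The causes of the shifts were not tested. Counts over all tested genes are not given for these settings, so the shifts describe the members alone. The 27 named genes kept their call in *anti-3* in all 189 combinations of gene and setting. They had been chosen as raised in *anti-3* in the same libraries, so a kept call was close to set in advance.

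The replicate numbers did not pair the libraries: deviations of same-numbered libraries of different groups correlated at -0.065 to 0.055 over 30 pairs of libraries. With a replicate block, 121 members were raised in *anti-3*, 73 were higher and 10 lower in *OX* than in WT, and 92 were lower in *OX*-H than in *OX*. Over all 24694 tested genes these counts were 1379, 7832, 11487 and 7116. The members had been chosen for being raised in *anti-3*, so the first count is a description only. Counting error limits the 29 members with under 30 reads in WT.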

Other observations

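Among the 10 members that were lower in *OX* than in WT at an adjusted p below 0.05 (differences of -0.75 to -0.31), POPTR_0018s00700 was the 1 with a GO term. Of the 27 members that were higher in *anti-3*-A than in WT (differences of 0.33 to 0.98), 10 carried a term, among them POPTR_0749s00210, POPTR_0012s01570, POPTR_0005s07060 and POPTR_0001s03620. Of the 11 that were lower in *anti-3*-A than in WT (differences of -0.76 to -0.22), 7 carried a term, among them POPTR_0006s19000, POPTR_0008s09140, POPTR_0011s04730 and POPTR_0001s29700. Of the 8 that were higher in *OX*-H than in WT (differences of 0.23 to 0.93), 5 carried a term, among them POPTR_0001s03620, POPTR_0003s14970, POPTR_0006s14090 and POPTR_0005s07060. These groups were formed from the values and were not tested further.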
